A study of Brassica napus with 14 samples.

Results

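Transcripts of 25 Arabidopsis loci of starch synthesis and breakdown were followed through seed development in oilseed rape (Brassica napus), an allotetraploid with an A and a C subgenome. The members are all genes of the cultivar DH12075 whose deposited Arabidopsis identifier is 1 of these loci, which gave 87 gene copies of the 96219 genes in the table. The RNA came from whole ovules taken on day 0 (stage OV, 3 libraries) and from whole seeds 7 days after fertilization (GLOB, 3 libraries), 10 days (HEART, 3 libraries), 28 days (MG, 3 libraries) and 35 days (DS, 2 libraries). All plants were of cultivar DH12075, grown in chambers under long days and pollinated by hand, with no treatment that differed between stages. The authors deposited 1 FPKM value per gene and stage (a unit that scales fragment counts by transcript length and library size). The spread between libraries and the depth are therefore unknown, no difference below has a replicate check, and none was tested. The table gives loci without symbols, so the symbols used here, like the enzyme roles, are the usual Arabidopsis ones.

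Starch is made in plastids. Glucose 6-phosphate is converted to glucose 1-phosphate and then to ADP-glucose by ADP-glucose pyrophosphorylase (AGPase), and starch synthases, branching enzymes and debranching enzymes build the glucans of the granule. Breakdown begins with phosphorylation of the granule surface by a glucan, water dikinase; phosphatases remove the phosphate again while beta-amylases release maltose, and debranching and disproportionating enzymes process the remaining glucans. In Arabidopsis and Brassica seeds starch is a transient store of the early seed, and oil and protein are the reserves of the mature one.

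Of the 87 copies, 67 reached 1 FPKM in at least 1 stage, 8 stayed above 0 but under 1 FPKM, and 12 were listed at 0 in all stages. Copies listed at 0 throughout were 13.8% of the members and 25.9% of all genes. Each locus had between 1 and 8 copies, with a median of 3, which was also the median over the 21491 Arabidopsis loci of the table. The chromosome number in the DH12075 identifier placed 41 copies in the A and 41 in the C subgenome, while 5 lay on unplaced sequences. Copies at 1 FPKM or more numbered 64 at OV, 59 at GLOB, 60 at HEART, 54 at MG and 48 at DS. Summed over all copies, the members stood at 548 FPKM at OV, 1083 at GLOB, 978 at HEART, 531 at MG and 478 at DS. They made up 0.123% of all summed FPKM at OV, 0.169% at GLOB, 0.165% at HEART, 0.0351% at MG and 0.0524% at DS.

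Marker genes of tissues were followed beside them as sums over copies. The 3 storage genes of the maturing embryo (CRU3, OLEO1, SESA4) summed to between 37.2 FPKM (OV) and 241560 FPKM (MG), and stood at 7541 FPKM in DS. The 2 ovule genes STK and INO were at 242 FPKM at OV, 859 at GLOB, 423 at HEART, 35.2 at MG and 0.794 at DS. The 4 seed coat genes lay between 3.52 FPKM (DS) and 317 FPKM (HEART), with BAN at 248 FPKM in HEART and 0.707 FPKM in OV. Storage genes were thus highest in MG, and the sums of the ovule and of the seed coat genes were lowest in DS. The seed coat genes differed from each other. BAN and TT12 were highest in HEART, while TT10 was highest in MG (17.3 FPKM, against 2.00 FPKM in HEART). MUM4 was highest in GLOB (17.8 FPKM) and was at 2.99 FPKM in MG and 3.44 FPKM in DS. The 3 endosperm genes summed to at most 14.4 FPKM (HEART) and were listed at 0 in DS. FIS2 and ZOU were highest in HEART, and AGL62 in MG (5.36 FPKM, against 4.96 FPKM in HEART). The 3 genes of green tissue summed to between 143 FPKM (DS) and 1567 FPKM (GLOB), of which LHCB1.3 was 1471 FPKM in GLOB. The other green tissue genes went otherwise. RBCS1A was listed at 0 in OV and was highest in HEART (101 FPKM). LHCA1 was highest in OV (174 FPKM, against 92.1 FPKM in GLOB). The silique wall genes summed to at most 2.92 FPKM, with IND listed at 0 in all stages, and the pollen genes to at most 2.68 FPKM (OV), with VGDH1 listed at 0 in all stages. The part of these tissues in the starch results was not tested, and in whole ovules and seeds fewer cells of a type and less RNA per cell cannot be told apart.

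A copy or locus is called higher or lower between stages when its log2(FPKM + 1) differed by at least 1, that is 2-fold on a scale that understates the change of low genes. The 49417 genes that reached 1 FPKM in any stage gave the background for copies, and the 17417 Arabidopsis loci that did so as a sum over copies gave it for locus totals. From OV to GLOB, 20 of the 67 member copies were higher (background 15.8%) and 1 was lower (background 11.0%), and 9 of the 25 locus totals were higher (background 17.9%) and 0 lower (background 11.7%). Between GLOB and HEART, 3 days apart, 1 copy was higher (background 4.89%) and 0 were lower (background 2.50%), and 0 locus totals were called higher (background 5.31%) or lower (background 2.54%). Most of the members' calls up to HEART were thus higher calls in the first step. From HEART to MG, 1 copy was higher (background 17.4%) and 26 were lower (background 22.4%), with 11 locus totals lower (background 23.0%) and 0 higher (background 18.2%). From MG to DS, 9 copies were higher (background 19.0%) and 23 lower (background 21.3%), with 3 locus totals higher (background 20.4%) and 10 lower (background 23.3%). Over the whole course, DS over OV, 5 copies were higher (background 23.1%) and 33 lower (background 25.5%), and 1 locus total was higher (background 25.4%) and 14 lower (background 25.3%).

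The median change over the 67 copies was 0.11 for GLOB over OV, -0.08 for HEART over GLOB, -0.66 for MG over HEART, -0.44 for DS over MG and -0.998 for DS over OV, on the log2(FPKM + 1) scale. Over all genes considered it lay between -0.09 and 0.01 in these 5 comparisons. The summed FPKM of the stages are unequal, so the scaling matters. When each stage was rescaled to a common sum, the median of all genes considered shifted to -0.32 (GLOB over OV), 0.08 (HEART over GLOB), -0.98 (MG over HEART), 0.27 (DS over MG) and -0.73 (DS over OV). On that scale 14 copies were higher and 12 lower for GLOB over OV, and 16 higher and 17 lower for DS over MG. The background shares given above are as deposited and do not apply to rescaled counts. Relative to the shifted median these became 18 and 3 for GLOB over OV and 13 and 20 for DS over MG, and 2 and 25 for MG over HEART. Locus totals gave 4 higher and 5 lower for GLOB over OV and 7 higher and 6 lower for DS over MG on a common sum, and 7 and 1, and 4 and 8, relative to the median of all loci. Quantile normalization gave 17 copies higher and 3 lower, and 7 locus totals higher and 1 lower, for GLOB over OV. For MG over HEART, 21 locus totals were lower on a common sum, of which 10 were not called as deposited (PGI1, APS1, APL4, SS1, SS3, ISA1, ISA2, BAM1, ISA3 and LDA), and 11 were lower relative to the median of all loci. Calls of single loci given in what follows are as deposited unless another scale is named. Over these rescalings no locus total that was called changed direction.

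**Figure D1:**
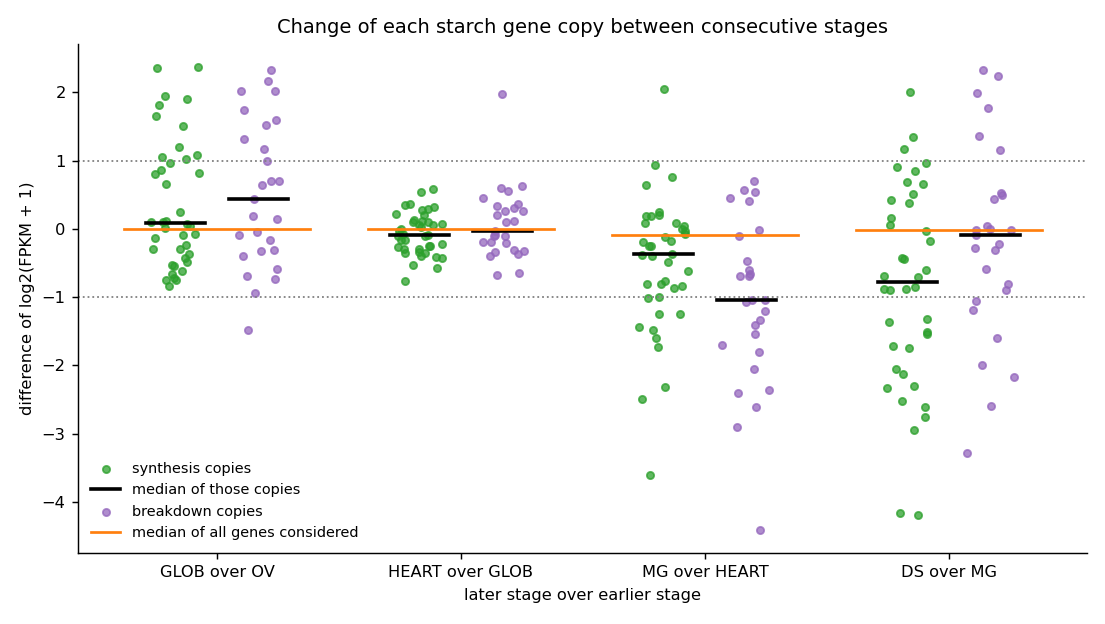
Differences of log2(FPKM + 1) between consecutive stages for the 40 synthesis copies (green) and 27 breakdown copies (purple) that reached 1 FPKM in a stage. Points are copies, black bars are their medians, the orange line is the median of all genes considered and dotted lines mark a 2-fold difference. Breakdown copies have the lower median for MG over HEART (-1.04, against -0.37 for synthesis copies) and synthesis copies have it for DS over MG (-0.78, against -0.09 for breakdown copies).

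ADP-glucose is supplied by AGPase, whose subunits followed different courses. APS1, the small, catalytic subunit of AGPase (AT5G48300, 4 copies), was at 49.2 FPKM at OV, 182 at GLOB, 147 at HEART, 162 at MG and 8.24 at DS. It was thus the highest of the 25 loci in GLOB, HEART and MG, 3.69-fold higher in GLOB than in OV, and in DS at 0.0509 of its MG value. Among the large subunits, which tune the activity of the enzyme, APL3 (AT4G39210, 3 copies) was at 24.0 FPKM at OV, 117 at GLOB, 90.2 at HEART, 22.1 at MG and 3.54 at DS. APL3 was 4.89-fold higher in GLOB than in OV, was lower in MG than in HEART and was lower again in DS. APL2 (AT1G27680, 3 copies) was at 19.7 FPKM at OV, 22.4 at GLOB, 24.0 at HEART, 6.93 at MG and 4.27 at DS, and was called lower only for MG over HEART among the consecutive steps. APL4 (AT2G21590, 8 copies, 3 of them at 1 FPKM or more) was at 17.4 FPKM at OV, 14.7 at GLOB, 10.7 at HEART, 9.39 at MG and 3.58 at DS. APL1, the main large subunit of Arabidopsis leaves (AT5G19220, 4 copies), was at 5.17 FPKM at OV, 2.09 at GLOB, 1.15 at HEART, 0.787 at MG and 0.700 at DS. For GLOB over OV its log2 difference of -0.999 just missed the threshold.

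The balance of the subunits therefore differed between stages, a comparison chosen after the values were seen. APS1 stood at 0.743 times the sum of the 4 APL loci at OV, 1.16 times at GLOB, 1.16 times at HEART, 4.12 times at MG and 0.680 times at DS. Without its highest copy, BnaN07g04970, the ratio was 0.276 at OV, 0.449 at GLOB, 0.427 at HEART, 2.03 at MG and 0.379 at DS, so MG kept the highest ratio. Within the large subunits APL3 held 36.2% of the sum at OV, 74.9% at GLOB, 71.5% at HEART, 56.4% at MG and 29.3% at DS. The split between APL3 and APL4 is less certain in MG and DS. The APL3 copy BnaN09g55650 shares its Darmor identifier with APL4 copies. It held 12.4% of the APL3 sum at GLOB, 44.7% at MG and 45.9% at DS. An APL4 copy with that identifier, BnaN02g34780, held 85.7% of the APL4 sum at DS.

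The enzymes before AGPase also differed from each other. The plastid phosphoglucose isomerase PGI1 (AT4G24620, 4 copies), which makes glucose 6-phosphate, was at 23.1 FPKM at OV, 52.7 at GLOB, 44.9 at HEART, 47.2 at MG and 5.19 at DS. As deposited, PGI1 and APS1 lay within 2-fold of HEART in MG (log2 differences 0.07 and 0.14), but on a common sum both were called lower for MG over HEART (-1.24 for PGI1 and -1.20 for APS1). PGI1 was called lower for DS over MG (-2.96). The plastid phosphoglucomutase PGM1 (AT5G51820, 3 copies), which makes glucose 1-phosphate, was at 15.0 FPKM at OV, 21.5 at GLOB, 20.8 at HEART, 8.54 at MG and 4.77 at DS, and was called lower already for MG over HEART (log2 difference -1.19). As a group of 7 loci, ADP-glucose supply summed to 154 FPKM at OV, 412 at GLOB, 339 at HEART, 257 at MG and 30.3 at DS. Of its 21 copies at 1 FPKM or more, 8 were higher (background 15.8%) and 0 lower (background 11.0%) for GLOB over OV. For MG over HEART, 1 was higher (background 17.4%) and 5 were lower (background 22.4%), and for DS over MG 0 were higher (background 19.0%) and 12 lower (background 21.3%).

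**Figure D2:**
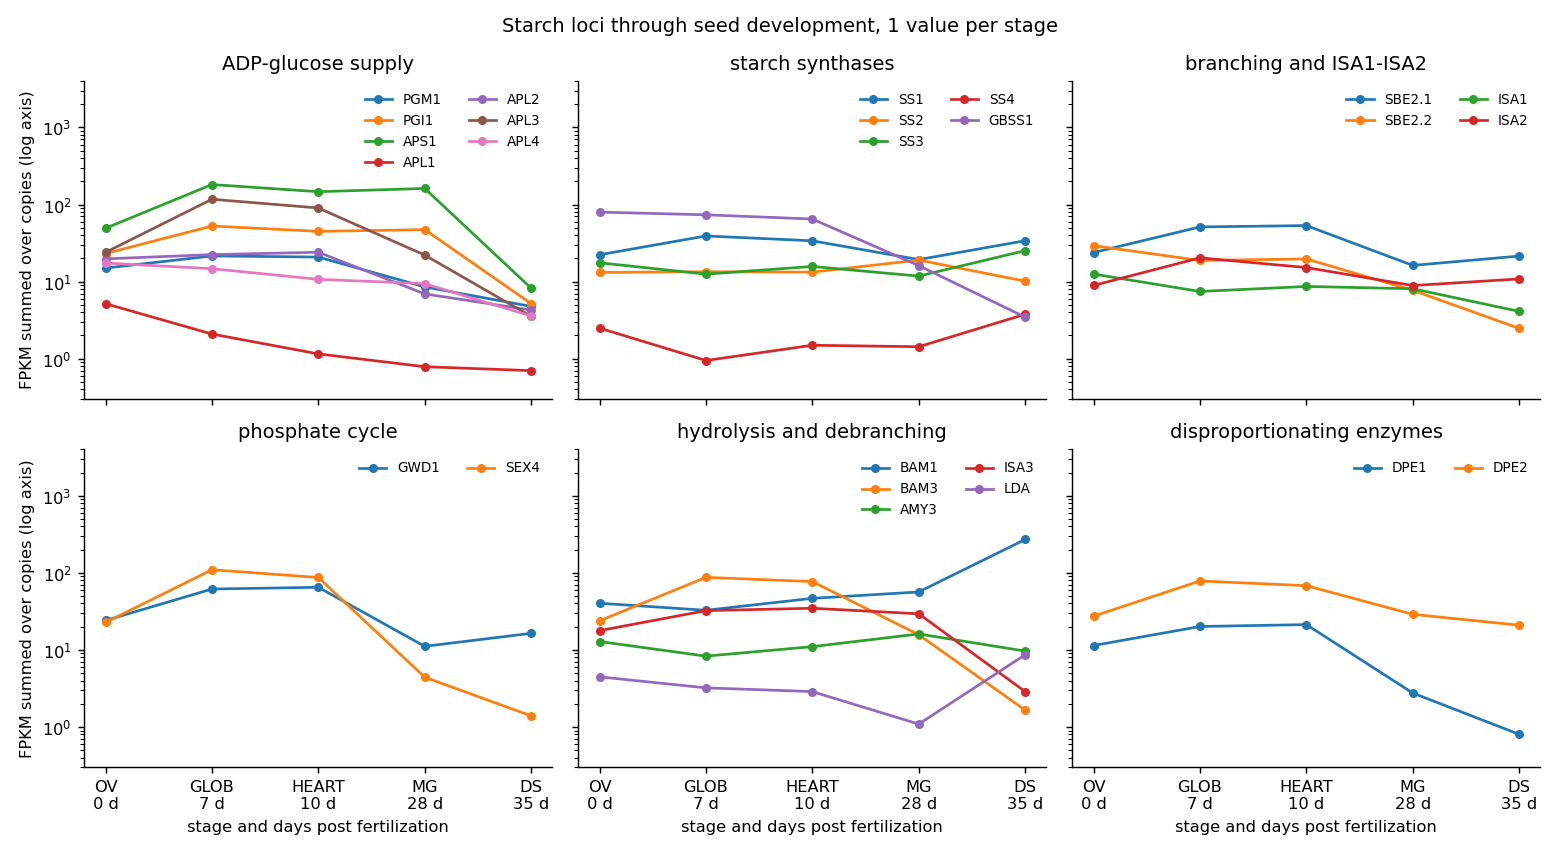
FPKM summed over the copies of each locus (log axis) against stage, with days post fertilization, 1 panel per role and 1 line per locus. APS1 is at 8.24 FPKM in DS, against 162 FPKM in MG, SEX4 and DPE1 are low from MG on, and BAM1 is highest in DS (270.5 FPKM).

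The starch synthases, which extend the glucan chains, did not share a course. GBSS1, the granule-bound synthase that makes amylose (AT1G32900, 2 copies), was at 79.8 FPKM at OV, 73.5 at GLOB, 64.9 at HEART, 16.1 at MG and 3.46 at DS. It was the highest of the 25 loci in OV and was called lower for MG over HEART (log2 difference -1.94), for DS over MG (-1.94) and for DS over OV (-4.18). SS1, which makes short chains (AT5G24300, 2 copies), was at 22.3 FPKM at OV, 39.1 at GLOB, 33.8 at HEART, 19.3 at MG and 33.9 at DS. SS2, which makes chains of intermediate length (AT3G01180, 5 copies), was at 13.2 FPKM at OV, 13.4 at GLOB, 13.3 at HEART, 19.1 at MG and 10.1 at DS. No consecutive step passed the threshold for SS1 or SS2. SS3 (AT1G11720, 5 copies), which also acts on longer chains, was at 17.6 FPKM at OV, 12.5 at GLOB, 15.7 at HEART, 11.8 at MG and 25.2 at DS, and was called higher for DS over MG (1.03, or 0.94 with quantile normalization, where the call was lost). SS4 (AT4G18240), which acts in granule initiation and had a single copy, was at 2.49 FPKM at OV, 0.947 at GLOB, 1.49 at HEART, 1.43 at MG and 3.77 at DS, with a log2 difference of 0.97 for DS over MG. GBSS1 held 59.0% of the summed FPKM of the 5 synthases at OV, 52.7% at GLOB, 50.2% at HEART, 23.8% at MG and 4.52% at DS, while SS1 was the highest synthase in MG and DS.

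Branch points are set by branching enzymes and trimmed by the isoamylase pair ISA1 and ISA2. SBE2.1 (AT2G36390, 3 copies) was at 23.8 FPKM at OV, 51.2 at GLOB, 53.3 at HEART, 16.2 at MG and 21.5 at DS. SBE2.2 (AT5G03650), with 1 copy, was at 29.3 FPKM at OV, 18.8 at GLOB, 19.7 at HEART, 7.72 at MG and 2.47 at DS. SBE2.1 was called higher for GLOB over OV (log2 difference 1.07, and 0.57 to 1.09 over the rescalings) and SBE2.2 was not (-0.61), and both were called lower for MG over HEART. The ratio of SBE2.1 to SBE2.2 was 0.814 at OV, 2.72 at GLOB, 2.71 at HEART, 2.1 at MG and 8.68 at DS. ISA1, the catalytic isoamylase of starch synthesis (AT2G39930, 2 copies), was at 12.5 FPKM at OV, 7.45 at GLOB, 8.66 at HEART, 8.08 at MG and 4.11 at DS, with no consecutive step past the threshold. ISA2, its partner without catalytic activity (AT1G03310, 4 copies, 2 of them listed at 0 throughout), was at 8.92 FPKM at OV, 20.4 at GLOB, 15.2 at HEART, 8.89 at MG and 10.8 at DS, and was called higher for GLOB over OV (1.11, and 0.64 on a common sum).

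Among the genes of breakdown, the 2 phosphate cycle members, GWD1 and SEX4, were high in GLOB and HEART and low in MG and DS. This does not extend to the whole cycle. The second dikinase PWD, from the further list below, was at 33.2 FPKM in GLOB, 26.5 in MG and 80.7 in DS. GWD1, the glucan, water dikinase that phosphorylates starch (AT1G10760, 5 copies), was at 24.1 FPKM at OV, 61.6 at GLOB, 64.9 at HEART, 11.1 at MG and 16.4 at DS. SEX4, the phosphatase that removes the phosphate (AT3G52180, 3 copies), was at 22.7 FPKM at OV, 109.6 at GLOB, 87.0 at HEART, 4.43 at MG and 1.39 at DS. Both were called higher for GLOB over OV, with log2 differences of 1.32 for GWD1 (0.82 on a common sum) and 2.22 for SEX4, and both were lower for MG over HEART, by -2.44 and -4.02. SEX4 had the widest range of the 25 loci, 78.6-fold between its highest and its lowest stage. The ratio of SEX4 to GWD1 was 0.943 at OV, 1.78 at GLOB, 1.34 at HEART, 0.398 at MG and 0.0850 at DS.

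Of the 2 plastid beta-amylases among the 25 loci, BAM3, the main one of Arabidopsis leaves (AT4G17090, 6 copies), was at 23.9 FPKM at OV, 87.2 at GLOB, 77.0 at HEART, 15.7 at MG and 1.65 at DS. BAM1, which in Arabidopsis is known for roles in guard cells and under stress (AT3G23920, 4 copies), was at 40.3 FPKM at OV, 32.7 at GLOB, 46.6 at HEART, 56.4 at MG and 270.5 at DS. The courses were opposite at the end: for DS over MG the log2 difference was -2.66 for BAM3 and 2.24 for BAM1. BAM3 stood at 0.593 times BAM1 at OV, 2.67 times at GLOB, 1.65 times at HEART, 0.279 times at MG and 0.00612 times at DS. Without the highest BAM1 copy, BnaN07g05970, the ratio was 4.58 in GLOB and 0.0140 in DS. Leaving out a BAM1 copy raises the ratio by necessity, so the GLOB value is no check. In DS, BAM3 remained below BAM1. The BAM1 total of DS lay above 96.8% of the Arabidopsis loci at 1 FPKM or more in that stage, and the BAM3 total above 6.30% of them. BAM1 alone held 81.3% of the summed FPKM of the breakdown genes in DS, 34.0% in MG and 7.53% in GLOB.

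The other hydrolases followed courses of their own. The plastid alpha-amylase AMY3 (AT1G69830, 2 copies) was at 12.8 FPKM at OV, 8.30 at GLOB, 11.0 at HEART, 16.1 at MG and 9.65 at DS, and no consecutive step passed the threshold. The isoamylase ISA3, which debranches glucans during breakdown (AT4G09020, 5 copies), was at 17.8 FPKM at OV, 32.3 at GLOB, 34.7 at HEART, 29.4 at MG and 2.88 at DS, and was called lower for DS over MG (log2 difference -2.97). LDA, the limit dextrinase (AT5G04360, 3 copies), was at 4.47 FPKM at OV, 3.22 at GLOB, 2.88 at HEART, 1.09 at MG and 8.64 at DS. LDA was called higher for DS over MG (2.21), beside BAM1 and SS3 the only locus total of the 25 that was as deposited (7 were on a common sum).

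The disproportionating enzymes handle the products of the amylases, DPE1 in the plastid and DPE2 on maltose in the cytosol. DPE1 (AT5G64860, 3 copies) was at 11.4 FPKM at OV, 20.1 at GLOB, 21.3 at HEART, 2.76 at MG and 0.804 at DS. DPE2 (AT2G40840, 2 copies) was at 27.4 FPKM at OV, 78.4 at GLOB, 68.1 at HEART, 28.9 at MG and 20.9 at DS. Both were called lower for MG over HEART (-2.57 for DPE1 and -1.21 for DPE2). DPE2 was called higher for GLOB over OV (1.48, and 0.98 on a common sum) and kept 20.9 FPKM in DS, where DPE1 was under 1 FPKM.

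Summed by role, synthesis genes held 66.3% of the members' FPKM at OV, 60.0% at GLOB, 57.7% at HEART, 68.8% at MG and 30.4% at DS. Multiplying a whole stage by a factor leaves this share as it is, and quantile normalization gave 68.3% at OV, 67.8% at MG and 34.4% at DS. In DS the share rested on BAM1, without which it was 70.0% in DS, 76.9% in MG, 60.6% in HEART, 61.8% in GLOB and 71.5% in OV. Leaving out a breakdown locus raises the synthesis share by necessity, and BAM1 was chosen after seeing the data. These values show only how much BAM1 weighs. GWD1 and SEX4, the phosphate cycle members, summed to 46.8 FPKM at OV, 171 at GLOB, 152 at HEART, 15.5 at MG and 17.8 at DS. Of the 27 breakdown copies at 1 FPKM or more, 15 were lower and 0 higher for MG over HEART, against 11 lower and 1 higher of the 40 synthesis copies (background 22.4% lower and 17.4% higher). For DS over MG, 7 breakdown copies were lower and 6 higher, against 16 lower and 3 higher among synthesis copies (background 21.3% lower and 19.0% higher). The breakdown counts of that step lie near the background. Whether the sides differ was not tested, since copies of a locus are not replicates.

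**Figure D3:**
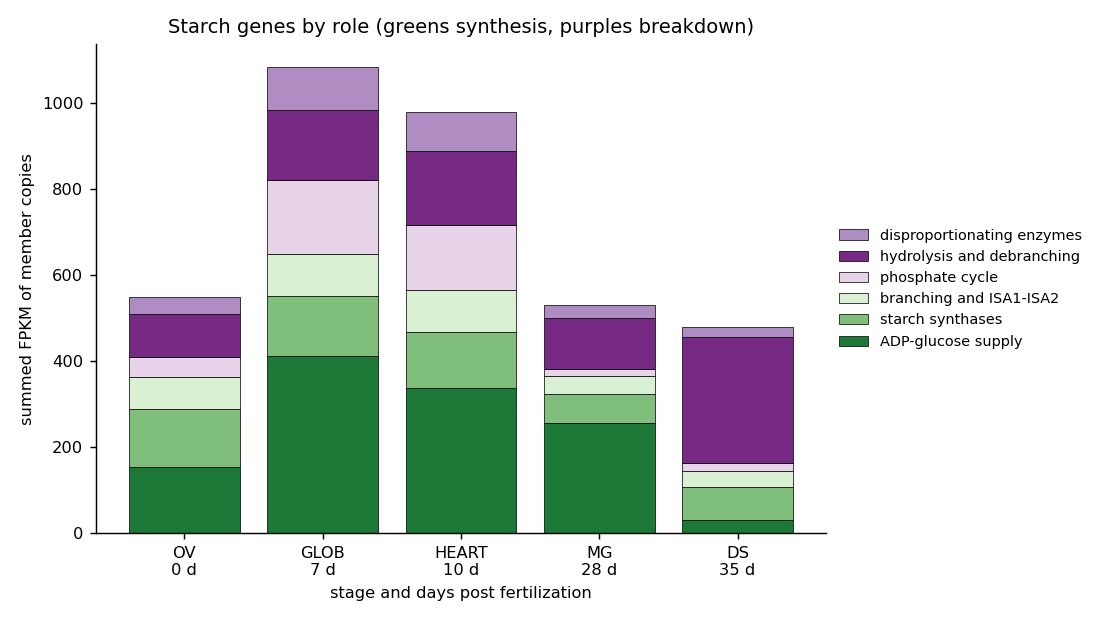
Summed FPKM of the member copies by stage, stacked by role, with synthesis roles in green at the bottom and breakdown roles in purple at the top. The whole bar is 1083 FPKM in GLOB and 478 FPKM in DS, and in DS the 293 FPKM of hydrolysis and debranching, of which BAM1 is 270.5 FPKM, make up the largest block.

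By locus totals, 5 loci were highest in OV (APL1, APL4, GBSS1, SBE2.2, ISA1), 9 in GLOB, 5 in HEART, 2 in MG (SS2, AMY3) and 4 in DS (SS3, SS4, BAM1, LDA). Over all loci considered the shares were 17.8% for OV, 17.5% for GLOB, 13.3% for HEART, 20.1% for MG and 31.2% for DS. No margin was required, and several margins were small, such as 1.03-fold between GLOB and HEART for PGM1. On a common sum 7 of the 25 loci had another highest stage, and the numbers became 11 at OV, 8 at GLOB, 5 at HEART, 0 at MG and 1 at DS. The shares over all loci are as deposited and do not apply to these rescaled numbers.

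Copies of the same locus did not always move together. The sources do not say how reads common to very similar copies were divided, which makes the value of any one copy uncertain. Of the 19 loci with at least 2 copies at 5 FPKM or more in a stage, 11 had copies whose log2 change differed by at least 1 at a consecutive step. That count takes the widest gap over all pairs and steps of a locus, and no share over all loci is given beside it. The widest gap was in APL3 for MG over HEART. BnaN06g40070 (chromosome 6, A) was at 15.4 FPKM at OV, 83.8 at GLOB, 65.8 at HEART, 4.48 at MG and 0.913 at DS, and BnaN09g55650 (chromosome 9, A) at 4.45, 14.5, 10.5, 9.88 and 1.63 FPKM in the same order. The copy with 73.0% of the APL3 sum in HEART thus held 20.3% of it in MG. The Darmor identifier of BnaN09g55650 is shared by 3 copies assigned to APL4, so its assignment to APL3 is less certain.

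In SBE2.1, BnaN05g08430 (chromosome 5, A) was at 20.4 FPKM at OV, 44.1 at GLOB, 46.0 at HEART, 7.35 at MG and 8.31 at DS, while BnaN14g10290 (chromosome 14, C) was at 3.47, 7.12, 7.31, 8.88 and 13.1 FPKM. The A copy was the higher one up to HEART and the C copy in MG and DS. In PGI1, BnaN01g14400 (chromosome 1, A) was at 16.5 FPKM in MG, against 3.23 FPKM in HEART, the only member copy called higher in that step, while BnaN17g46470 (chromosome 17, C) was at 9.84 FPKM in MG, against 18.0 FPKM in HEART. In ISA2 the copies were nearly equal in OV, GLOB and HEART, and in DS BnaN10g01610 (chromosome 10, A) was at 9.51 FPKM and BnaN15g01630 (chromosome 15, C) at 1.32 FPKM. In SEX4, BnaN18g30890 (chromosome 18, C) alone carried 97.4% of the sum in GLOB, with 107 FPKM there, and stood at 84.7 at HEART, 3.03 at MG and 0.331 at DS. The other SEX4 copy above 1 FPKM, BnaN04g06300 (chromosome 4, with a Darmor identifier of chromosome C4), stayed between 1.06 and 2.54 FPKM.

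**Figure D4:**
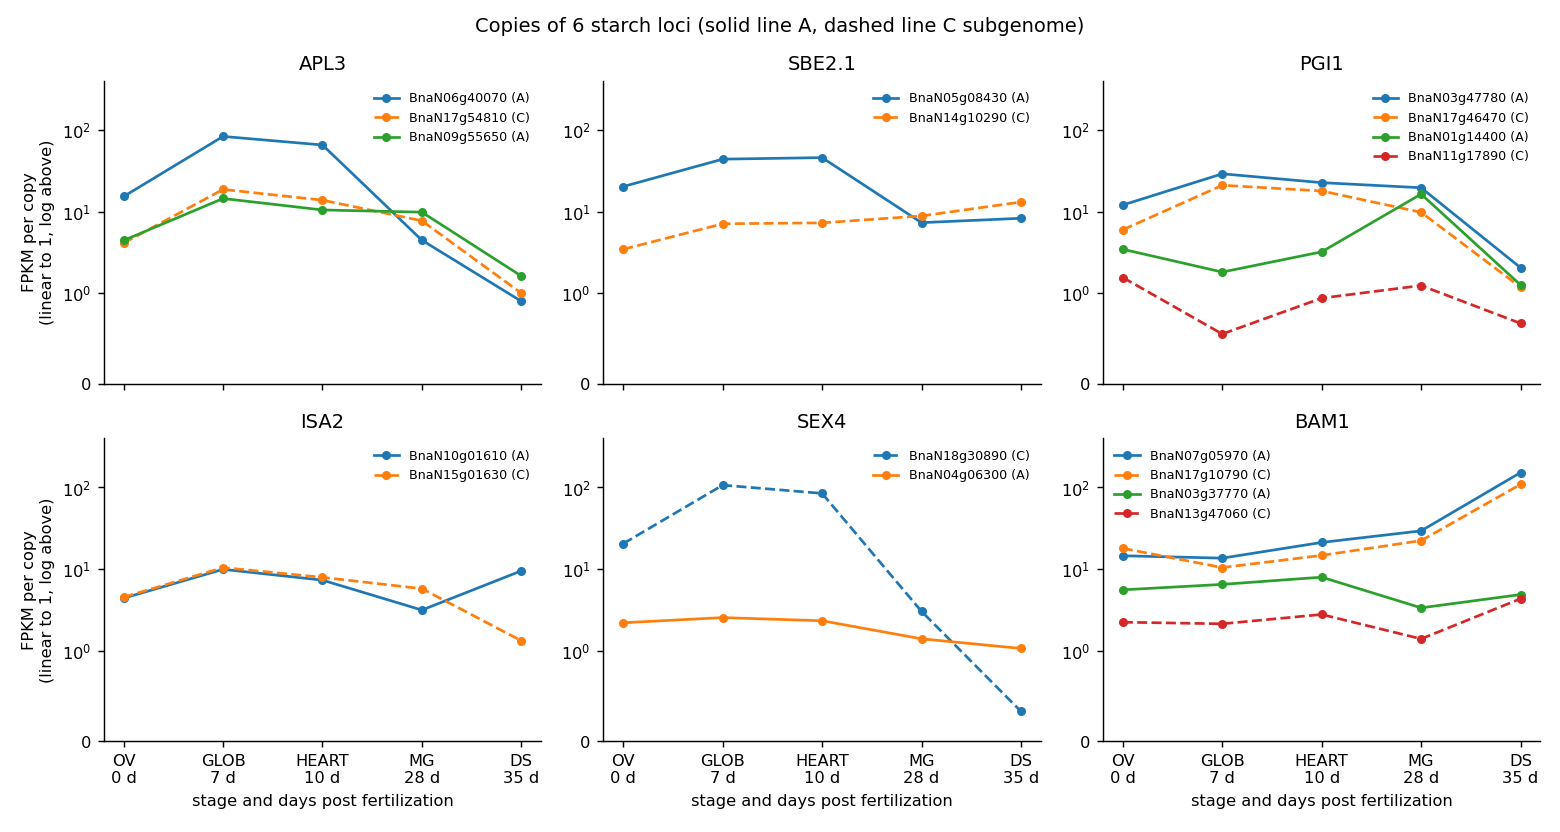
FPKM of each copy of 6 loci that reached 1 FPKM in a stage, against stage, on an axis that is linear to 1 FPKM and logarithmic above. Solid lines are copies on A chromosomes and dashed lines copies on C chromosomes. The highest copy changes between HEART and MG in APL3 and SBE2.1, and both abundant BAM1 copies are highest in DS, at 152 and 109 FPKM.

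The high DS level of BAM1 came from a copy on each subgenome. BnaN07g05970 (chromosome 7, A) was at 152 FPKM in DS, against 29.4 FPKM in MG, and BnaN17g10790 (chromosome 17, C) at 109 FPKM in DS, against 22.3 FPKM in MG. These 2 copies held 96.6% of the BAM1 sum in DS and 73.6% in GLOB. The most negative log2 difference of a member copy for DS over MG was that of the APS1 copy BnaN17g09210 (chromosome 17, C), at 2.19 FPKM in DS, against 57.6 FPKM in MG, and the APS1 copy BnaN07g04970 (chromosome 7, A) was at 3.65 FPKM in DS, against 82.1 FPKM in MG. The largest log2 difference for GLOB over OV was that of the APL3 copy BnaN06g40070, and the only copy called between GLOB and HEART was BnaN08g04190 of ISA3 (chromosome 8, A), at 12.1 FPKM in HEART, against 2.34 FPKM in GLOB, and listed at 0 in OV and DS.

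Among the 23 loci with several copies, the same copy was the highest in all 5 stages in 10, and 1 copy held at least 50% of the FPKM summed over stages in 19. Where only 2 copies are expressed, 1 of them holds at least 50% by necessity. No share over all loci is given beside these counts. The highest copies lay on A chromosomes in 12 loci and on C chromosomes in 10, and the one of LDA was unplaced. The C share of the members' FPKM was 46.1% at OV, 46.8% at GLOB, 45.8% at HEART, 43.6% at MG and 45.9% at DS, against 48.7%, 48.0%, 48.1%, 50.1% and 48.9% over all placed genes. Without the single copy BnaN07g04970 of APS1 the members' share was 48.9%, 52.2%, 50.7%, 51.6% and 46.3%, above that of all placed genes except in DS. Leaving out an A copy raises the C share by necessity, so these values show only how much 1 copy weighs. The C share of the breakdown genes was 56.1% at OV, 64.3% at GLOB, 60.4% at HEART, 42.4% at MG and 45.1% at DS. In MG and DS it thus lay below that of all placed genes. In GLOB it was 53.0% without SEX4. Of the SEX4 sum 97.4% lay on C there, so leaving it out lowers the share by necessity.

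Further genes of starch metabolism were followed through a list of 33 loci, of which 32 had a copy in the table and 30 reached 1 FPKM as a sum. For GLOB over OV, 21 of their 88 copies at 1 FPKM or more were higher and 6 lower (14 and 14 on a common sum). For HEART over GLOB, 3 were higher and 3 lower. For MG over HEART, 14 were higher and 21 lower (2 and 55 on a common sum), and for DS over MG, 22 were higher and 29 lower (29 and 15 on a common sum). As deposited, the background for copies was 15.8% higher and 11.0% lower for GLOB over OV, and 4.89% and 2.50% for HEART over GLOB. It was 17.4% and 22.4% for MG over HEART, and 19.0% and 21.3% for DS over MG. The counts as deposited for HEART over GLOB and MG over HEART lie near these shares. These backgrounds do not apply to the counts on a common sum. On that scale no background share is given. The median of all genes considered was there -0.32 for GLOB over OV, -0.98 for MG over HEART and 0.27 for DS over MG. As deposited, the median change of the 88 copies was 0.27 for GLOB over OV, -0.04 for HEART over GLOB, -0.23 for MG over HEART and -0.04 for DS over MG.

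The highest of these loci was BAM9, a beta-amylase relative without catalytic activity, at 23.8 FPKM at OV, 28.7 at GLOB, 24.6 at HEART, 32.8 at MG and 388 at DS. With BAM1 it was called higher for DS over MG (log2 difference 3.52). GPT2, a carrier of glucose 6-phosphate into plastids, was at 70.2 FPKM at OV, 321 at GLOB, 189 at HEART, 118 at MG and 5.04 at DS, and NTT2, a plastid ATP carrier, at 72.1 FPKM at OV, 58.5 at GLOB, 55.7 at HEART, 175 at MG and 295 at DS. GPT2 was called lower for DS over MG (-4.30), the step in which APS1 was lower too. The largest change at any step was that of BAM5, a beta-amylase found outside plastids, at 0.125 FPKM at OV, 62.3 at GLOB, 59.5 at HEART, 0.332 at MG and 0.305 at DS. BAM5 was thus present above 1 FPKM only in GLOB and HEART. The plastid and cytosolic glucan phosphorylases PHS1 and PHS2 reached 152 FPKM (HEART) and 114 FPKM (GLOB) and stood at 7.33 and 3.92 FPKM in DS. PTST2, a protein of granule initiation, was at 190.4 FPKM in DS, against 54.6 FPKM in MG, and the second dikinase PWD at 80.7 FPKM in DS, against 26.5 FPKM in MG; these 4 loci were named after their values were seen.

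**Figure D5:**
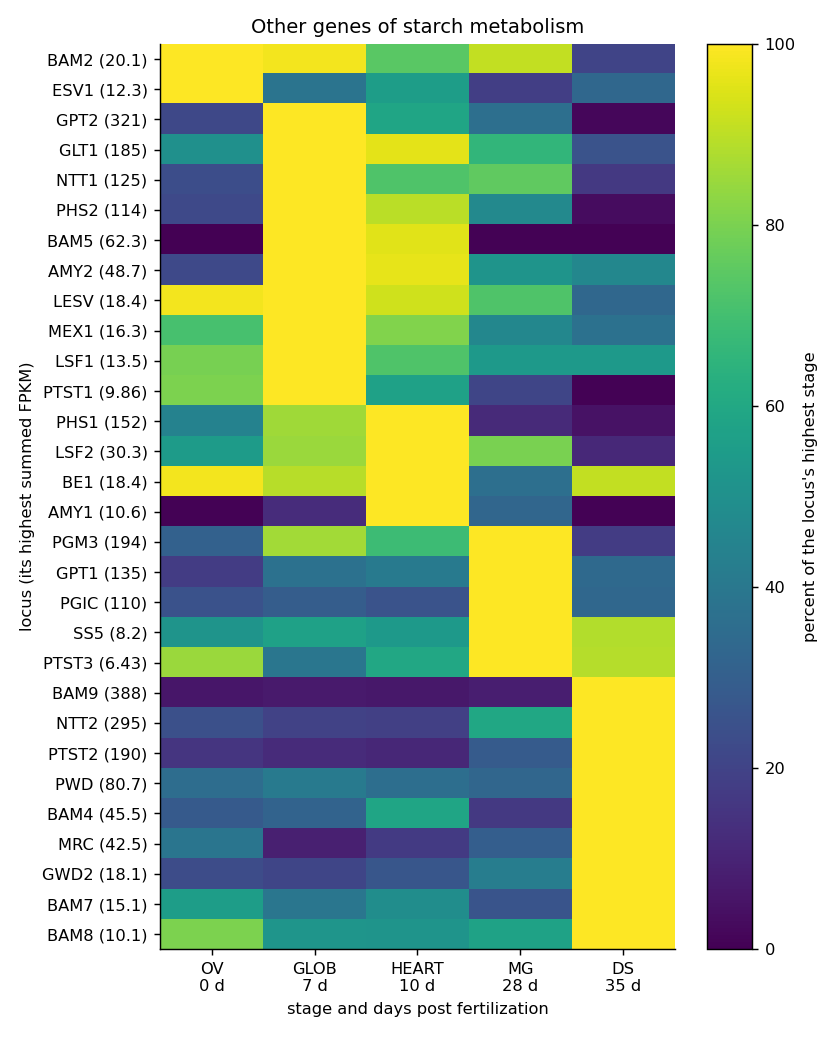
Summed FPKM of 30 further loci of starch metabolism as a percentage of each locus's own highest stage, with that highest value in FPKM after the symbol. Rows are sorted by the highest stage, which is OV for 2 loci, GLOB for 10, HEART for 4, MG for 5 and DS for 9. Over all loci considered the shares were 17.8% for OV, 17.5% for GLOB, 13.3% for HEART, 20.1% for MG and 31.2% for DS. The numbers for HEART, MG and DS lie near these shares.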

How the data were processed

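Polyadenylated RNA of 14 libraries in 5 stages was sequenced. Per the labels' protocols and the series' design text, single-end reads of 100 bases were trimmed with Trimmomatic 0.36, aligned with HiSat2 to the DH12075 genome and quantified with Cuffquant and Cuffdiff; the submitters' processing notes name TopHat2 and Cuffnorm instead of HiSat2 and Cuffquant, and which applies to the table was not settled. The authors deposited FPKM values, 1 per gene and stage; the depth, the gene annotation and the rule for combining replicates are not given in the sources used here. A further 2 columns match no sample and were not used. No sequence of these genes was used.

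Copies were summed per Arabidopsis locus. Differences are of log2(FPKM + 1), later stage minus earlier, over genes with at least 1 FPKM in any stage, called at 1 or more. Since there is 1 value per stage, the limma fit foreseen for values per library was not run, and no test was made. Subgenomes follow the chromosome number of the DH12075 identifier, each number taking the letter that most of its Darmor identifiers carry (10 A and 9 C chromosomes). Members, gene lists and settings were chosen with earlier results of these data known. Named were all member loci, the highest copies of loci, the copies with the largest rise and fall at each step among those past the threshold with at least 10 FPKM, the pairs of copies that differed most (the gap in log2 change at a step), and 3 further loci each for level and change; most highest copies are given only as counts. Alternatives were leaving out the filter, a minimum mean of 5 FPKM, 0.1 as pseudocount, a 1.5-fold threshold, 3 rescalings of the stages, and leaving out single loci or copies. The counting was tested on simulated data. Python 3.11.15 with pandas 2.3.3 was used.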

Additional observations from a re-analysis of the deposited data

How the results depend on the processing

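No paired analysis was possible because the columns are whole stages and carry no replicate, and for the same reason the replicate block and the leaving out of replicates gave no value. Counts are called moved when they changed by more than 1.5 times, and shares when they changed by more than 5 percentage points. Settings relative to a median, those without BAM1, SEX4 or a BAM1 or APS1 copy in the ratios were chosen after seeing the data. Among values for whole comparisons, 109 stayed and 19 moved under these settings, and 0 reversed. Part of the 109 could not move. Shares keep their value when a stage is multiplied by a factor, and leaving out the filter adds no call on the log2(FPKM + 1) scale. Counts were compared as higher and lower calls together. GLOB over OV thus stayed on a common sum, although 20 higher and 1 lower copies became 14 and 12. For single locus totals 454 stayed and 46 crossed the threshold, 33 of them on a common sum, with 0 reversals of a called one. Copies called for HEART over GLOB numbered 1 as deposited, 4 with a pseudocount of 0.1, 6 at 1.5-fold and 0 with a mean FPKM of at least 5. At 1.5-fold, GLOB over OV gave 40 copies (21 as deposited) and MG over HEART 41 (27 as deposited). On a common sum, MG over HEART gave 48 member copies, 57 copies of the further list (35 as deposited) and 21 locus totals (11 as deposited), and 27 member copies and 11 loci relative to the shifted medians; the highest stage was OV for 11 loci, MG for 0 and DS for 1 (5, 2 and 4 as deposited). The synthesis share without APS1 was 51.9% in GLOB, 50.3% in HEART and 55.1% in MG, and without BAM1 71.5% in OV, 76.9% in MG and 70.0% in DS. The C share without BnaN07g04970 was 52.2% in GLOB and 51.6% in MG. No value has a replicate error, and depth limits could not be given.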
